A study of Mus musculus with 2 samples.

Results

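The decision to enter mitosis turns on CDK1 bound to cyclin B. The kinases WEE1 and PKMYT1 (MYT1) add inhibitory phosphates to CDK1, and the phosphatases CDC25A, CDC25B and CDC25C take them off. BORA helps Aurora A to activate PLK1, which in turn acts on WEE1 and CDC25. MASTL (Greatwall) restrains the phosphatase PP2A-B55, which would otherwise undo CDK1 phosphorylation. Much of this switch is set by phosphorylation and protein turnover, neither of which an mRNA measurement shows.

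The transcripts of these 7 regulators, *Wee1*, *Pkmyt1*, *Cdc25a*, *Cdc25b*, *Cdc25c*, *Mastl* and *Bora*, were followed here along the cell cycle of mouse neurospheres. They were taken by symbol from the 10666 genes of the expression table, and all 7 of the 7 symbols were found. Neurospheres are balls of neural progenitors that grow in suspension. These came from the dorsal telencephalon of wild-type C57BL/6 embryos at embryonic day 14.5 and were grown with 10 ng/ml EGF and 10 ng/ml bFGF. The series holds 2 replicate cultures of this 1 condition, with 5748 cells in culture 1 and 7057 in culture 2, and the labels do not say whether the cultures came from separate litters. With no second condition and with cells that are not replicates, nothing was tested and p-values are absent. Each value is given for both cultures.

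Each cell carries a tricycle position, an angle from 0 to 2π that the authors computed from the same expression data. In these cells the S phase genes *Mcm5* and *Pcna* had their loess maxima at 0.71π and 0.76π in culture 1 and at 0.65π and 0.7π in culture 2. *Top2a*, which untangles sister chromatids, had its maximum at 1.02π and 0.945π, and the centromere gene *Cenpa* at 1.205π and 1.315π. The angle therefore runs from G1 near 0 through S to G2 near π and mitosis beyond it. By the paper, the position was learned in these same neurospheres from the most variable genes that Gene Ontology assigns to the cell cycle. It is not independent of the members if any of them was among those genes, which the files do not state. *Cdc25c* is in a standard G2M list. A position was therefore also rebuilt from 89 S and G2M genes without the members, and its circular correlation with the deposited one was 0.933 in culture 1 and 0.909 in culture 2.

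The cultures differ in depth, with a median of 19477 UMIs per cell in culture 1 and 14637 in culture 2, and 48 cell barcodes occur in both. Of the neural progenitor markers in the table, *Nes*, *Fabp7*, *Vim* and *Slc1a3* had a value in 89.8% to 100% of cells and *Pax6* in 21.1% and 23.1%, and *Sox2* and *Hes5* were not analysed here. The oligodendrocyte lineage gene *Olig2* had a value in 97.3% and 91.9% of cells, *Cspg4* in 11.8% and 13.7%, and *Pdgfra* and *Sox10* in at most 8.77%. Of the neuronal markers, *Map2* and *Gap43* had a value in 63.6% to 94.1% of cells and *Dcx* and *Rbfox3* in at most 7.34%. None of the 13 cell type markers in the table followed the position in both cultures by the measure used for the members, an R² defined below. In culture 2 alone *Vim* (0.0937) and *Pax6* (0.0515) passed its threshold of 0.05, with 0.00373 and 0.0232 in culture 1. No endothelial, microglial or blood marker was analysed here.

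The transcript of each member is sparse. The share of cells with a value above 0 was between 13.1% (*Mastl*) and 28.4% (*Cdc25a*) in culture 1 and between 7.03% (*Mastl*) and 21.9% (*Cdc25a*) in culture 2. All 7 members were detected in at least 5% of cells in both cultures. The values are normalized for the depth of each cell and are not corrected for gene length, so each gene is compared with itself along the cycle and not with the others in level. In GENCODE vM21 on GRCm38, *Wee1*, *Pkmyt1*, *Cdc25b* and *Cdc25c* each overlap a gene on the opposite strand, of which only *Spef1*, beside *Cdc25b*, is in the table. Whether the quantification used strand is not given in the sources used here.

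The upstream sequences of 3 members, *Cdc25a*, *Cdc25b* and *Mastl*, were read from RefSeq on GRCm38. The 150 bases before the start are shown so that the promoters of members that are highest at different points of the cycle can be set side by side. The *Cdc25a* sequence is chr9:109875429-109875578 on the plus strand, that of *Cdc25b* is chr2:131186798-131186947 on the plus strand, and that of *Mastl* is chr2:23156025-23156174 on the minus strand. Capitals mark matches to CCAAT (written ATTGG where it lies on the other strand) or to the E2F-type sequence TTTGGCGC.
Cdc25a: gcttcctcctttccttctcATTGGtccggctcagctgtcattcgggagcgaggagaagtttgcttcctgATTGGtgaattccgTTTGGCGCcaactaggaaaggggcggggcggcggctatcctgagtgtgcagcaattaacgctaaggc
Cdc25b: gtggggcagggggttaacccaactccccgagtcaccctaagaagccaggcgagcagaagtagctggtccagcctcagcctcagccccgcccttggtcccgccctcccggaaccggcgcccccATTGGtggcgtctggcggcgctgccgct
Mastl: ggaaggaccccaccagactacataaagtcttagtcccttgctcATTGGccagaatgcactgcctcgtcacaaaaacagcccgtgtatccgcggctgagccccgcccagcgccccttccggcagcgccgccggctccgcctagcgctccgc

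CCAAT stood at 131 and 81 bases before the start of *Cdc25a*, at 28 bases before that of *Cdc25b* and at 107 bases before that of *Mastl*, on the reverse strand each time. Over all 32851 promoters of the same length, 24.5% hold CCAAT on either strand. *Cdc25a* alone of the 3 holds an E2F-type sequence, TTTGGCGC, starting 67 bases before the start. The letters searched were TTTGGCGC, TTTCCCGC, TTTCGCGC and TTTGCCGC, and 1.24% of promoters hold any of them. The cell cycle homology region, searched as TTTGAA or TTCGAA and present in 9.70% of promoters, was found in none of the 3 windows. In *Cdc25b* a TTCGAA lies 8 bases into the transcribed part, outside the window. A match of letters is a description and not a binding site.

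All 7 members varied with the position. The fit of 2 harmonics (a smooth curve with up to 2 waves per cycle) to log2(value + 1) gave R² values of 0.05 or more in each culture for 7 of 7 members, where R² is the share of the variance among cells that the curve takes up. Of all 10666 genes, 428 did so, which is 4.01%. The median of the lower R² of the cultures was 0.0932 over the members and 0.00183 over all genes. By the same measure the members ranked from 90 for *Cdc25c* and 158 for *Bora* to 366 for *Cdc25a* and 400 for *Cdc25b*. *Cdc25b* lies close to the threshold, with an R² of 0.0688 in culture 1 and 0.0550 in culture 2. Its lower R² was 0.0418 among cells of 12000 to 20000 UMIs and 0.0446 with total UMIs in the fit, so it is called only without these restrictions.

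**Figure D1:**
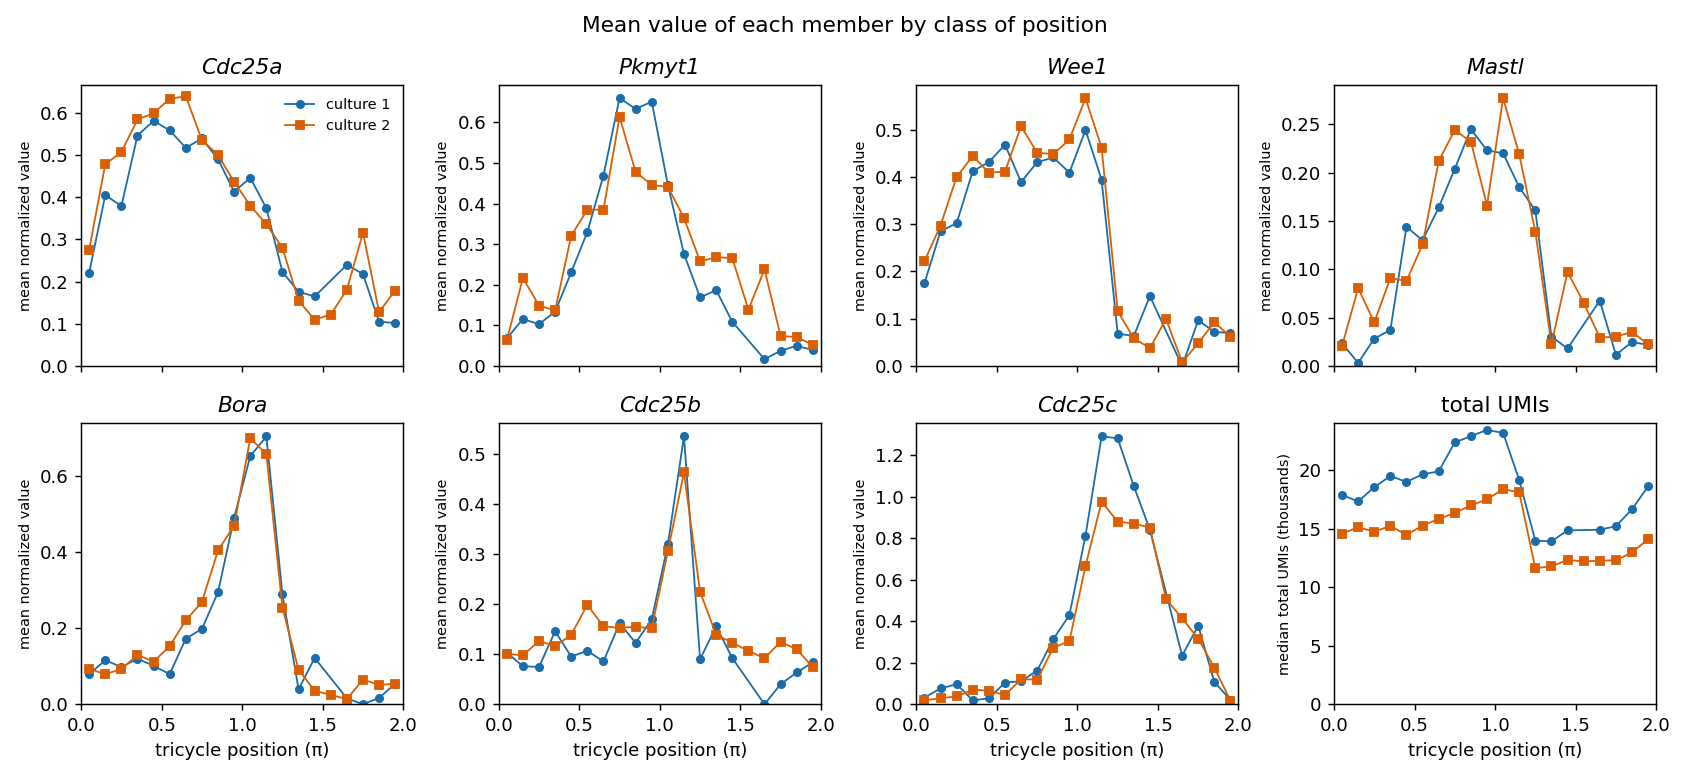
Mean normalized value of each member in classes of 0.1π of the tricycle position (horizontal axis, in units of π), for culture 1 (blue circles) and culture 2 (orange squares), with the median total UMIs per cell in the last panel; classes with fewer than 20 cells are left out. *Cdc25a* is highest before π, *Wee1* forms a plateau that ends at 1.2π, and *Cdc25c* stays high beyond it.

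The 7 transcripts did not all share a peak. The maxima of the periodic loess lines were spread from 0.623π for *Cdc25a* to 1.25π for *Cdc25c* (means of the cultures), with *Pkmyt1* at 0.818π, *Wee1* at 0.840π, *Mastl* at 0.920π, *Bora* at 1.10π and *Cdc25b* at 1.2π. The SD between cultures was at most 0.0849π, that of *Cdc25c*. *Pkmyt1* and *Wee1* were 0.0220π apart, less than the SD of *Pkmyt1* (0.0318π), so their order is not resolved. *Cdc25b* and *Cdc25c* also lay closer together than the SD of *Cdc25c*. *Cdc25a* came first and *Cdc25c* last, with *Bora* and *Cdc25b* in between and after the other 3, under each of the 9 settings tried. The order among *Wee1*, *Pkmyt1* and *Mastl* changed between settings. By class means, *Cdc25b* and *Cdc25c* shared the highest class, 1.1π to 1.2π, in both cultures. *Wee1* was highest at 1.0π to 1.1π in both, later than its loess maximum. By the harmonic curve, 5 of 7 members had their maximum within 0.25π of π in both cultures. Of the 428 genes past the R² threshold in both cultures, 277 did so too, which is 2.60% of all 10666 genes. As all members passed the threshold, their count stands beside 277 of 428, which is a similar share. The remaining members were *Cdc25a*, which was earlier, and *Cdc25c*, which was later.

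**Figure D2:**
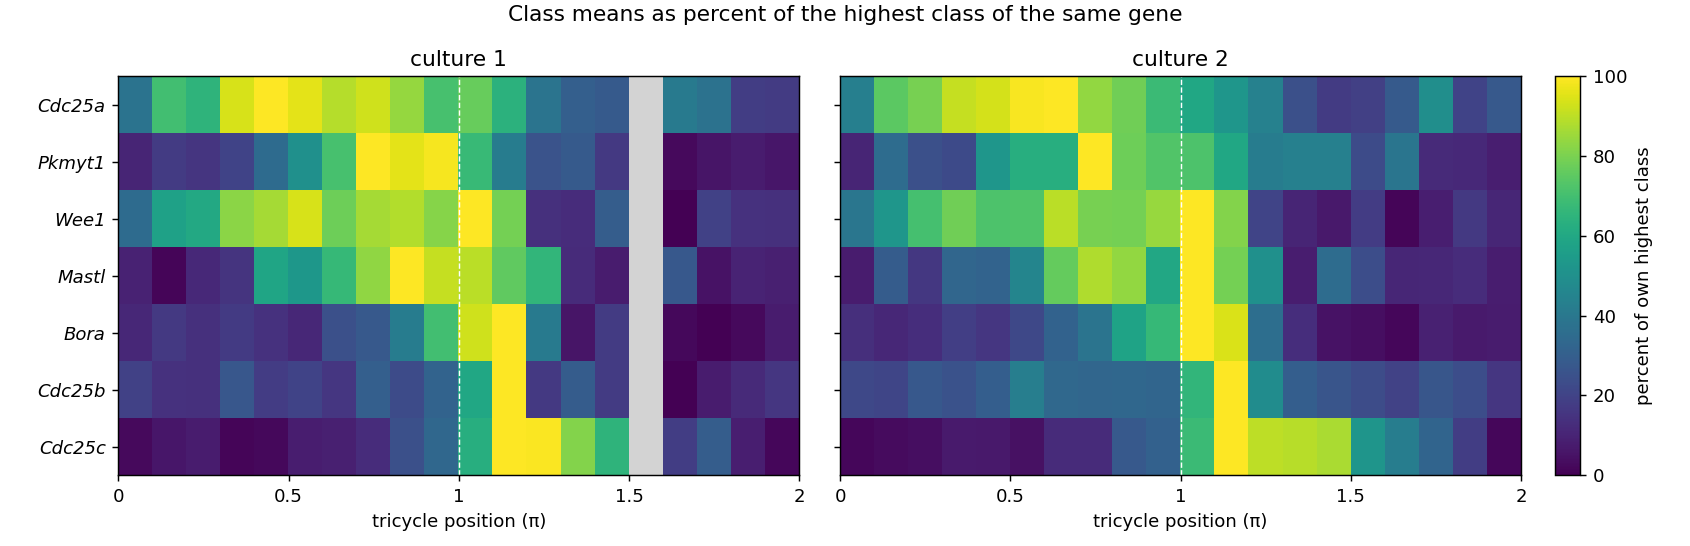
Mean value in each class of 0.1π as a percent of the highest class of the same gene (colour), for the members (rows, in the order of their loess maxima) along the tricycle position (horizontal axis, in units of π) in culture 1 (left) and culture 2 (right); grey is a class with fewer than 20 cells and the dashed line is π. The high part (at least 50% of the highest class) lies further right for *Cdc25c* than for *Cdc25a*, without a steady move over the rows between. That of *Wee1* covers the same classes as that of *Cdc25a*, and that of *Cdc25b* covers only the classes from 1.0π to 1.2π.

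*Wee1* encodes the nuclear kinase that phosphorylates CDK1 on tyrosine (chromosome 7, 110122046 to 110143286, plus strand). Its RNA formed a plateau rather than a peak. Along the 4 eighths of the cycle from 0.25π to 1.25π its mean value was 0.416, 0.428, 0.424 and 0.426 in culture 1. The same eighths of culture 2 gave 0.423, 0.459, 0.461 and 0.459. All of these exceed the values of the last eighth, 1.75π to 2.0π, which holds G1 and resting cells and had 0.0713 in culture 1 and 0.0656 in culture 2. At least 50% of the highest class was kept in 11 classes of 0.1π, from 0.10π to 1.2π, in each culture. *Cdc25a* kept it over the same classes. On so flat a plateau the loess maximum of *Wee1* is poorly placed: 0.840π at a span of 0.3 and 1.05π at a span of 0.1.

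*Pkmyt1*, the membrane-bound partner kinase (chromosome 17, 23726336 to 23736735, plus strand), was narrower. Its mean value was highest in the eighth before π, at 0.659 in culture 1 and 0.493 in culture 2. From 1.75π on it was 0.0398 and 0.0551, so the ratio of highest to last was 16.6 and 8.95, where it was 6.00 and 7.03 for *Wee1*. Unlike *Wee1* it was already lower in the eighth after π, at 0.352 and 0.386. The share of cells with a value went from 50.2% (exact 95% interval 47.0% to 53.4%) to 33.2% (30.4% to 36.1%) across π in culture 1. In culture 2 it went from 37.4% (33.3% to 41.6%) to 30.4% (27.7% to 33.1%). These intervals cover counting error only.

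Among the phosphatases, *Cdc25a* is the member known for acting at the start of S phase as well as at mitosis (chromosome 9, 109875579 to 109893895, plus strand). It was the earliest of the 7 here, although its high part was as wide as that of *Wee1*. Its loess maximum was 0.623π at a span of 0.3 and 0.840π at a span of 0.5. Its mean value was highest from 0.5π to 0.75π, at 0.539 in culture 1 and 0.633 in culture 2. By the eighth after π it was 0.406 and 0.347. It was also the member with the smallest ratio of highest to last eighth in culture 2, 3.58, with 5.23 in culture 1. In the last eighth 10.2% of cells in culture 1 and 12.8% in culture 2 still had a value.

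*Cdc25b*, which is known for starting CDK1 activation in G2 (chromosome 2, 131186949 to 131198497, plus strand), had the narrowest high part. Its mean value was 0.151 and 0.146 in the eighth before π and 0.413 and 0.387 in the eighth after it. Only the classes from 1.0π to 1.2π reached 50% of the highest class, in both cultures. The value was 0.536 in culture 1 and 0.464 in culture 2 at 1.1π to 1.2π. It had been 0.170 and 0.152 at 0.90π to 1.0π, and was 0.0900 and 0.225 at 1.2π to 1.3π.

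*Cdc25c*, the phosphatase of the mitotic feedback loop with CDK1 (chromosome 18, minus strand), had the widest swing of the members, with a ratio of highest to last eighth of 31.5 and 19.8. Its mean value in the last eighth was 0.0340 (culture 1) and 0.0438 (culture 2), and in the eighth after π it was 1.06 and 0.869. The share of cells with a value went from 2.74% (2.03% to 3.61%) to 66.0% (63.0% to 68.8%) in culture 1, at median depths of 18437 and 20527 UMIs. In culture 2 it went from 3.08% (2.50% to 3.74%) to 53.3% (50.3% to 56.3%), at 13991 and 17813 UMIs. At least 50% of the highest class was kept from 1.0π to 1.5π in culture 1 and to 1.6π in culture 2, beyond the end of every other member.

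*Bora*, the Aurora A cofactor (chromosome 14, 99046222 to 99074540, plus strand), was higher after π than before it. Its mean value in the eighths on either side of π was 0.377 and 0.663 in culture 1, and 0.406 and 0.640 in culture 2. *Mastl*, the Greatwall kinase (chromosome 2, 23115606 to 23156024, minus strand), was the scarcest by share of cells, with a broad high part. Its mean value across the same eighths was 0.230 and 0.202 in culture 1 and 0.219 and 0.235 in culture 2. From 1.75π on it was 0.0220 and 0.0247. The exact 95% intervals of the share of cells with *Mastl* overlapped across π in both cultures. They were 24.1% to 29.7% and 20.9% to 26.1% in culture 1, and 14.3% to 20.8% and 17.2% to 21.9% in culture 2. The side of π on which *Mastl* was higher is thus not resolved, where *Bora* was higher after π in both cultures.

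**Figure D3:**
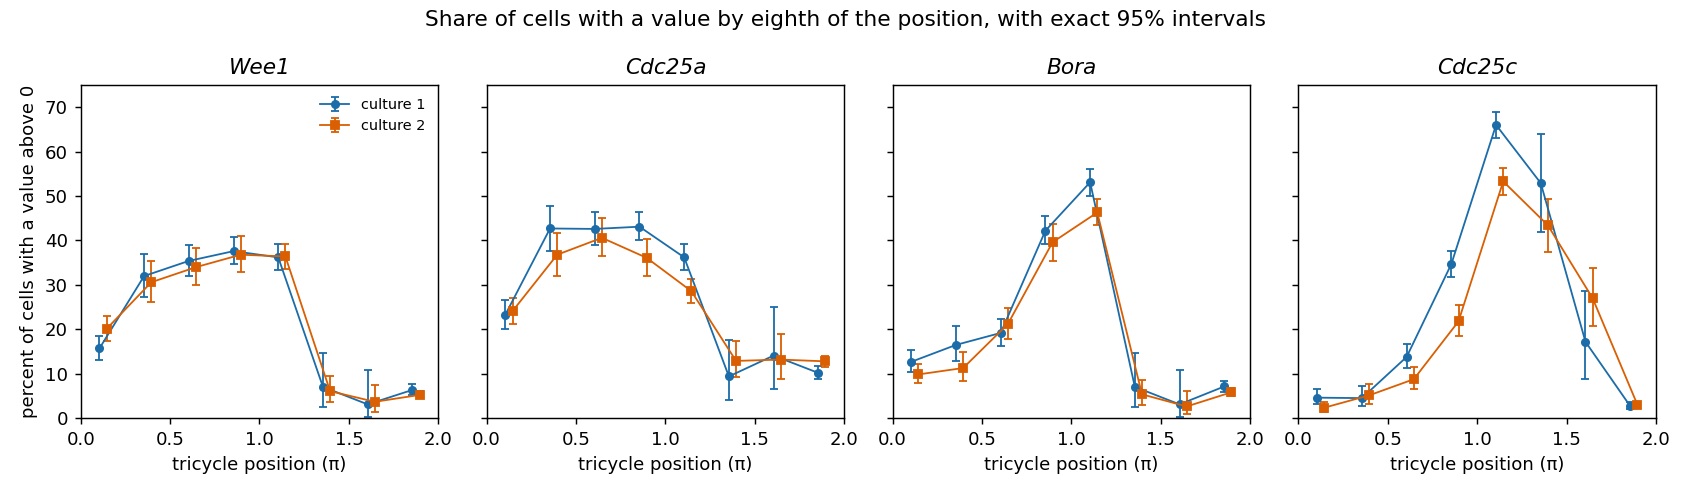
Percent of cells with a value above 0 for *Wee1*, *Cdc25a*, *Bora* and *Cdc25c* (vertical axis) in 8 equal parts of the tricycle position (horizontal axis, in units of π), in culture 1 (blue circles) and culture 2 (orange squares); bars are exact 95% binomial intervals. *Wee1* goes from 36.2% to 7.06% of cells past 1.25π in culture 1, while *Cdc25c* goes from 66.0% to 52.9%.

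The members parted in the cells past 1.25π. Between the eighth from π to 1.25π (1064 cells in culture 1 and 1120 in culture 2) and the next one (85 and 279 cells), 5 of 7 members were at least 2 times lower in mean value in both cultures. Of the 7053 genes with a mean of at least 0.1 in the first of these eighths in both cultures, 2.74% were. The median ratio over those genes was 1.02 in each culture. This pair of eighths was chosen after the profiles had been seen, and the filter looks at the earlier eighth only. In the later one *Mastl* in both cultures, *Bora* and *Wee1* in culture 2 and *Cdc25b* in culture 1 had means below 0.1. The count and the share are thus a description and not a test.

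The ratio of the earlier to the later eighth for *Bora* was 6.22 in culture 1, from mean values of 0.663 and 0.107, and 8.96 in culture 2, from 0.640 and 0.0714. *Wee1* was 3.27 and 7.01 times lower, with 0.426 and 0.130 in culture 1, and 0.459 and 0.0655 in culture 2, before and after the boundary. The share of cells with *Wee1* went from 36.2% (33.3% to 39.2%) to 7.06% (2.63% to 14.7%) and from 36.4% (33.6% to 39.3%) to 6.09% (3.59% to 9.58%). The later shares are near those of the last eighth, 6.37% and 5.24%.

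*Mastl* was 3.82 and 3.94 times lower, *Cdc25b* 4.86 and 2.64 times, and *Cdc25a* 3.06 and 2.01 times, which in culture 2 is just inside the limit. *Pkmyt1*, at 2.07 and 1.64, passed in culture 1 only. *Cdc25c* had ratios of 0.994 and 1.05, with mean values of 1.06 and 1.07 in culture 1 and of 0.869 and 0.825 in culture 2. The mean RNA of *Cdc25c*, relative to the RNA of the cell, was thus similar in these eighths. That of the kinase *Wee1* and of the other phosphatases *Cdc25a* and *Cdc25b* was lower in the later one. The earlier eighth includes the rise of *Cdc25c*. In culture 1 its class means were 0.811 at 1.0π to 1.1π, 1.29 at 1.1π to 1.2π and 0.840 at 1.4π to 1.5π. Culture 2 had 0.665, 0.975 and 0.850 in these classes.

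**Figure D4:**
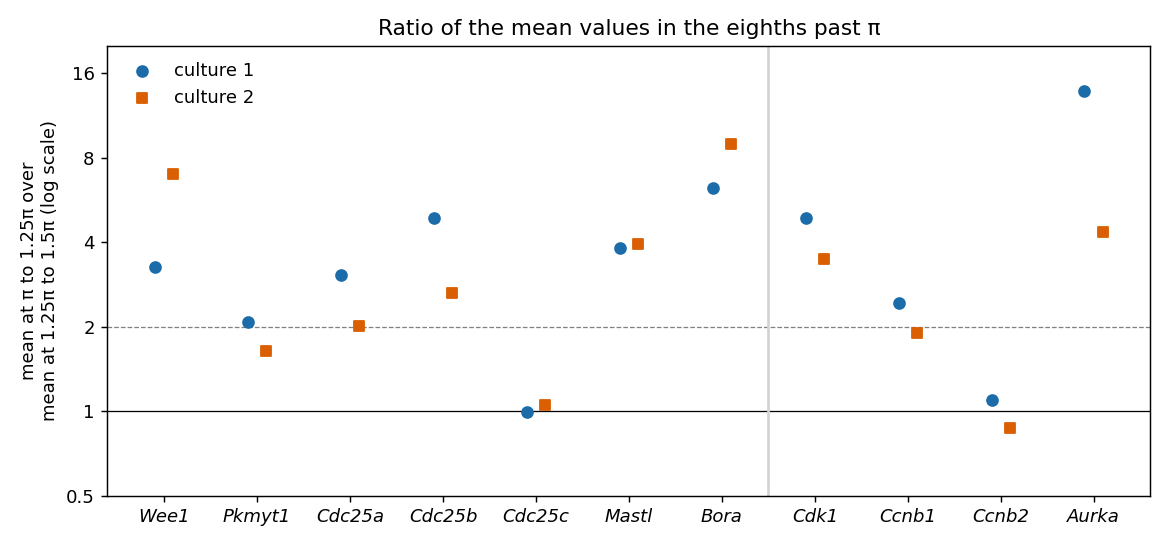
Ratio of the mean value at π to 1.25π over that at 1.25π to 1.5π (vertical axis, log scale) for the members and for *Cdk1*, *Ccnb1*, *Ccnb2* and *Aurka* (right of the grey line), in culture 1 (blue circles) and culture 2 (orange squares); the solid line is no difference and the dashed line a ratio of 2. *Cdc25c* and *Ccnb2* lie near 1 and *Wee1*, *Bora*, *Mastl*, *Cdc25b* and *Cdc25a* above 2 in both cultures.

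Total RNA moved with this boundary. The median was 20527 UMIs per cell before and 14111 after it in culture 1, and 17813 and 11882 in culture 2. Among cells of 12000 to 20000 UMIs alone, *Wee1* was 2.95 and 10.5 times lower, *Bora* 36.6 and 9.64 times and *Mastl* 2.15 and 5.05 times. *Cdc25c* was 1.42 and 1.35 times lower there, with 51 and 105 cells in the later eighth. On values with the depth normalization undone, which follow the RNA of each cell, *Cdc25c* was 1.72 and 1.48 times lower and *Wee1* 6.09 and 8.22 times. Along the rebuilt position the ratios were 3.24 and 6.64 for *Wee1*, 3.05 and 14.7 for *Bora*, 9.18 and 4.26 for *Mastl*, 6.41 and 4.46 for *Cdc25b* and 1.06 and 1.18 for *Cdc25c*. Which member had the highest ratio thus depended on the setting and the culture. *Cdc25a* there had 1.72 and 2.50 and *Pkmyt1* 3.38 and 2.35, so *Pkmyt1* takes the place of *Cdc25a* in the count.

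Within the eighth from π to 1.25π, transcripts of *Wee1* and *Cdc25c* were detected together in some cells. Both had a value in 282 of 1064 cells (26.5%) of culture 1 and in 228 of 1120 cells (20.4%) of culture 2. In the last eighth both had a value in 0.168% of cells at a median of 18437 UMIs, and in 0.254% at 13991. The product of the single shares in the eighth past π is 23.9% and 19.4%. Among cells with *Cdc25c*, *Wee1* had a value in 40.2% and 38.2%, and among cells without it in 28.5% and 34.4%. The cells with *Cdc25c* were deeper, at 22187 against 18827 UMIs in culture 1 and 18521 against 16746 in culture 2, and the part of depth in this difference was not tested.

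The authors also deposited discrete stages from other methods. In the SchwabeCC stages, *Cdc25a* and *Wee1* had their highest mean value in G1.S cells of both cultures. *Pkmyt1* and *Mastl* were highest in S, with 0.603 and 0.416 for *Pkmyt1* and 0.248 and 0.185 for *Mastl*. *Bora* was highest in G2, with 0.350 and 0.351. *Cdc25b* and *Cdc25c* were highest in G2.M, where *Cdc25c* had 0.535 and 0.539. SchwabeCC left 2451 and 3151 cells without a stage. In the coarser Seurat stages *Cdc25a*, *Wee1* and *Pkmyt1* were highest in S and *Bora*, *Cdc25b* and *Cdc25c* in G2M in both cultures, but *Mastl* was highest in G2M, with 0.185 against 0.156 in S in culture 2. The cyclone stages, with only 133 and 56 cells in S, gave the same places except for *Mastl*, which was highest in S in culture 1 (0.259 against 0.226 in G2M) and in G2M in culture 2 (0.237 against 0.111 in S). The stage of *Mastl* thus depended on the method. *Cdc25c* is in a standard G2M list, as said above, so its place in G2M stages may not be independent of its own value. Whether other members are among the stage genes of these methods was not checked.

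Around the members, the list of CDKs, cyclins and the CDK-activating kinase divided. Of its 7 genes in the table, 4 passed the same R² threshold in each culture, and the median lower R² was 0.0954. *Ccnb1* had a lower R² of 0.607, *Cdk1* 0.544, *Ccnb2* 0.322 and *Cdk2* 0.0954. The genes that did not pass, *Cdk7* (0.00343), *Mnat1* (0.00253) and *Ccnh* (0.00109), are those of the CDK-activating kinase, and *Ccna2* was not analysed here. *Cdk1* was 4.86 and 3.47 times lower past 1.25π, *Ccnb1* was 2.43 times lower in culture 1 and went from a mean value of 4.76 to 2.51 in culture 2, and *Ccnb2* had ratios of 1.10 and 0.873. All 4 genes of the upstream list passed, at a median of 0.30, with *Tpx2*, which activates Aurora A, at 0.700, *Aurka* itself at 0.425 and the transcription factor gene *Mybl2* at 0.175, and *Plk1* was not analysed here. *Aurka*, the partner kinase of BORA, was 13.8 and 4.35 times lower past 1.25π.

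None of the 10 genes of the PP2A-B55 arm, on which MASTL acts, reached 0.05, and their median lower R² was 0.00273. *Ppp2r2d*, a B55 subunit, had 0.0450, *Arpp19*, a MASTL substrate, 0.0279 and *Ppp2r2b* 0.00450. A low R² is not a flat line for all of them. From lowest to highest point the loess line rose by 0.384 and 0.416 log2 units for *Ppp2r2d* and by 0.307 and 0.305 for *Arpp19*. It rose by 0.203 and 0.190 for *Mastl*, and by at most 0.201 for the rest of the arm. Of 11 DNA damage checkpoint genes, with a median of 0.0248, 3 passed, *Clspn* at 0.360, *Topbp1* at 0.218 and *Chek1*, the kinase that marks CDC25A for destruction, at 0.109, and *Rad9a* and *Gadd45a* were not analysed here. These 3 had loess maxima from 0.625π to 0.75π, near that of *Cdc25a*. Of 7 ubiquitin ligase genes, with a median of 0.0104, the APC/C activators *Cdc20* (0.673) and *Fzr1* (0.109) and the APC/C inhibitor *Fbxo5* (0.330) passed, and *Skp1* was not analysed here. Of 6 genes of the 14-3-3 proteins, which hold CDC25 in the cytoplasm, none passed, and the median was 0.00452. *Ywhah* came nearest at 0.0165, followed by *Ywhae* at 0.00821 and *Ywhaq* at 0.00693, and *Sfn* was not analysed here.

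**Figure D5:**
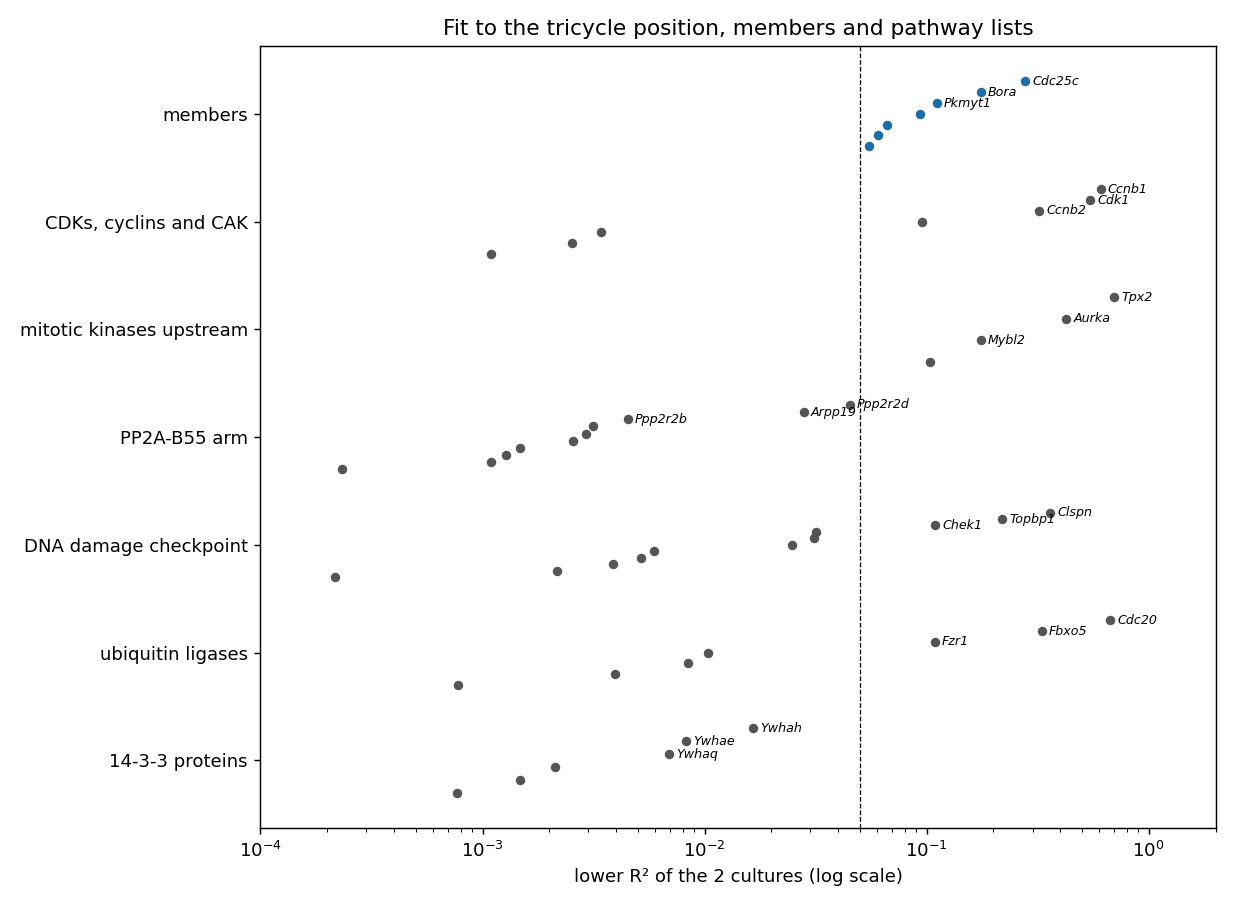
Lower R² of the 2 cultures (horizontal axis, log scale) for each gene (points) of the members and of the pathway lists (rows), with the 3 highest genes of each list named and the threshold of 0.05 dashed. All members and all genes of the upstream list lie to the right of the threshold, and the PP2A-B55 arm and the 14-3-3 genes to its left. The upstream list is labelled as mitotic kinases but also holds genes that encode no kinase, such as *Tpx2* and *Mybl2*.

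The genes whose profiles were most like those of the members differed from member to member. Likeness was the Pearson r of the class means over 19 classes in culture 1 and 20 in culture 2, among 427 other genes past the R² threshold. The means share the same cells and the same angle, and a smooth curve on few classes gives high values easily, so r is a description only. *Cdc25c* was nearest to *Cdc20* (0.968 and 0.985), *Knstrn* and *Cdkn3*, and *Bora* to *Cenpl* (0.975 and 0.977), *Ccnf* and *Kif23*. *Cdc25b* was nearest to *Kif14* (0.915 and 0.938), *Smtn* and *Gas2l3*. *Cdc25a* was nearest to *Rnf168* (0.944 and 0.953), *Hells* and *Atad5*, and *Pkmyt1* to *Ncapg2* (0.975 and 0.933) and *Gmnn*. *Mastl* was nearest to *Traip* (0.949 and 0.948), *Gen1* and *Smc2*, and *Wee1* to *Lsm8* (0.938 and 0.940), *Mis12* and *Nup62*.

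Between members, the profile of *Wee1* was most like that of *Cdc25a* (r of 0.920 in culture 1 and 0.856 in culture 2), and that of *Pkmyt1* most like that of *Mastl* (0.910 and 0.870). *Wee1* and *Cdc25c* had an r of -0.116 and -0.216. *Cdc25a* and *Cdc25c* had the lowest, -0.260 and -0.491, and *Cdc25b* lay between its paralogs, with 0.290 and 0.175 against *Cdc25a* and 0.570 and 0.586 against *Cdc25c*. The 3 phosphatase genes thus had different profiles in the same cells.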

How the data were processed

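Single-cell 3′ RNA-seq (10x Genomics Chromium) of 2 cultures was analysed, where the labels give version 2 of the kit and the paper version 3. By their methods the authors ran Alevin (Salmon 1.3.0, per the labels) on GRCm38, kept spliced counts as expression, and removed outlying cells, including by doublet score, and rarely detected genes. The deposited expression values are a signal on a linear scale after depth normalization by the authors, with median sums of 11598 and 11399 per cell in cultures 1 and 2. They are not whole counts, so no count model was used and cells could not be thinned. Total UMIs are the authors' deposited estimated counts summed per cell. Position and stages are other values of that deposited table.

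Fits used log2(value + 1). Within each culture, 2 harmonics of the position were fitted by least squares to every gene (Python 3.11.15, numpy 2.4.6), and a gene was called at an R² of at least 0.05 in both. Maxima are those of a periodic loess on tripled data (R 4.3.3, degree 2, span 0.3). Profiles are means in 20 classes of 0.1π with at least 20 cells, and in 8 classes. Intervals are exact 95% binomial intervals (scipy 1.17.1). The rebuilt position is the angle of a PCA within each culture of the S and G2M genes of Seurat 5.3.0. The steps were tested on simulated data.

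The members and the gene lists were chosen with earlier results of these data known. The text names all members, from each pathway list the 3 genes with the largest lower R² and those not analysed, and for each member the 3 genes with the most similar profile. A list gene and a similar gene that fall under this rule are not reported here. Genes named beyond this rule (the rest of the CDK list, the phase landmarks and the cell type markers) complete a count of 5 or fewer or describe the axis and the cells. The alternatives were another pseudocount, depth normalization undone, a window of total UMIs, total UMIs in the fit, the rebuilt position, each culture left out, other thresholds and loess spans, and a filter on low genes. The comparison of the eighths past π and its alternatives were added after the data had been seen.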

Additional observations from a re-analysis of the deposited data

How the results depend on the processing

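The number of members past the R² threshold in both cultures was 6 or 7 under every alternative except the threshold of 0.1, where it was 3 (*Pkmyt1*, *Cdc25c* and *Bora*). It was 7 with either culture left out, which the rule fixes, as a member called in both cultures passes in each. The threshold of 0.02 and the filter on low genes, which all members pass, also could not lower it. The member lost at 6 was *Cdc25b*. The share of all genes called was 8.34% at a threshold of 0.02, 2.25% at 0.1 and 3.86% to 5.51% under the other alternatives, and 4.26% and 5.60% with 1 culture left out. The median position of the members' maxima, 0.920π, became 1.05π at a span of 0.1, 0.975π at a span of 0.5, 0.846π in the window of total UMIs (where *Cdc25b* was not called) and 0.892π along the rebuilt position, and the cause was not tested. With 1 culture left out it was 0.905π to 0.935π. The number of members at least 2 times lower past 1.25π was 5 or 6 throughout, also when 1.0π to 1.2π was set against 1.3π to 1.5π, and *Wee1*, *Cdc25b*, *Mastl* and *Bora* were counted each time. Leaving out a culture could not lower this count either. Of the values of single members, 21 of the maxima and 13 of the R² values moved by more than the SD between cultures, and 35 and 36 did not. These counts include the settings with 1 culture left out, whose outcome is fixed by the definition of the SD. Such a setting never moves a maximum, and it moves the lower R² only when the culture that holds it is left out. For *Wee1* the SD of the maximum is 0, so any change counts as moved. No paired analysis was possible because there is only 1 group. The SDs rest on 2 cultures, and depth limits the later eighth most, with 85 cells in culture 1.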
